A study of Mus musculus with 8 samples.

Results

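The 65 genes described here are the replication-dependent histone genes, chosen by name as every protein-coding gene whose symbol starts with Hist1h, Hist2h, Hist3h or Hist4h. They were 65 of the 16119 genes in the count table, and all 65 were among the 15837 genes that passed the filter on low counts. The annotation of the mouse genome lists 67 such genes, and Hist1h2bh and Hist1h2bm were not analysed here. By histone class, 6 of the genes encode linker histone H1, 18 H2A, 16 H2B, 12 H3 and 13 H4. By position on GRCm38, 52 lie in the Hist1 cluster (chr13:21715763-23934851), 10 in the Hist2 cluster (chr3:96219865-96270132), 2 at Hist3 (chr11:58948920-58956830) and 1, Hist4h4, on chromosome 6 (chr6:136801553-136804415).

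Histone proteins package DNA into nucleosomes, and a cell that copies its genome needs a matching supply of new histones. Replication-dependent histone genes meet that need: they are transcribed from clusters of many near-identical copies, and their mRNAs accumulate in S phase and are degraded when DNA synthesis ends. Most of these mRNAs end in a short stem-loop bound by SLBP, instead of a poly(A) tail, so that libraries primed on poly(A) miss much of them while libraries of total RNA can hold them.

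RNA-seq was performed on DC-restricted progenitors (CDPs), the bone marrow cells committed to give rise to dendritic cells (DCs), from males labelled C57BL/6 (C57BL/6J in the study's methods). Mice on a high fat diet (HFD, 60 kcal% fat, labelled as diet-induced obese after 16 weeks of feeding) were compared with matched controls on control chow (CF, 10 kcal% fat), with 4 libraries per diet, named here HFD 1 to HFD 4 and CF 1 to CF 4. Each library came from about 50000 cells sorted as negative for lineage markers, intermediate for c-kit, low for Sca1 and positive for CD115 and Flt3, and was prepared from total RNA with depletion of ribosomal RNA. The labels do not say that replicates are separate animals, so p values measure the spread between these samples. All mice were on the same strain background, and the labels name no agent other than the diet.

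Total counts were 28203651 to 48409689 per library. Short non-coding RNAs took 8.50% to 13.6% of the counts in HFD and 21.7% to 33.9% in CF, and levels are given as CPM, counts scaled by library size and by TMM, a composition factor that was 0.80 to 1.18. The sort markers were present in every library: Kit was at 34.2 to 53.6 CPM, Flt3 at 88.8 to 378 CPM, Csf1r, which encodes CD115, at 79.4 to 133 CPM, and Irf8, a transcription factor of DC progenitors, at 251 to 674 CPM. HFD 1 stood apart, with a summed level of 12 neutrophil markers of 19820 CPM against 938 to 6440 in the other libraries, and of 12 erythroid markers of 804 CPM against 108 to 191. In bulk libraries, fewer cells of a type and less RNA per cell cannot be told apart.

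The stem-loop is the sequence that sets these mRNAs apart, so its forms are shown first. The annotated sequence past the stop codon of each gene was searched for the histone stem-loop on the sense strand. It was found in 44 of the 46 genes with at least 50 nt annotated past the stop, and the remaining 19 genes have less annotated there. It started 21 to 58 nt past the stop codon, with a median of 31.5 nt. In the 16 bases of the forms held by more than 1 gene, capitals mark the 6 bases on each side that pair in the stem and lower case marks the 4 bases of the loop.

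H1, H2A, H2B and H3 form of 24 genes: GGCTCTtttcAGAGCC
H1, H2B and H3 form of 6 genes: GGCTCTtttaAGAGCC
H4 form of 7 genes: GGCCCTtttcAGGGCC
H4 form of 2 genes, Hist1h4i and Hist2h4: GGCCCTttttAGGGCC
H4 form of 2 genes, Hist1h4b and Hist1h4j: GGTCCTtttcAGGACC

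The form with a GGCTCT stem was carried by no H4 gene, and all 12 H4 genes in which a stem-loop was found had a stem that starts with GGCCCT or GGTCCT. Some annotated transcripts run on: 17 of the 44 genes have over 200 nt annotated past the stem-loop, up to 4884 nt, which describes the annotation and not the RNA in these libraries.

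Promoters of the same genes were read from RefSeq on GRCm38.p6 as the 250 bases before the start site, which matched 59 of the 65 genes. They were searched on both strands for CCAAT, for the TATA motif TATAAA and for the octamer ATTTGCAT, which OCT1 binds. CCAAT was in 81.4% of the histone promoters against 33.8% of all 32851 RefSeq promoters of that length, TATAAA in 49.2% against 12.4%, and the octamer in 20.3% against 1.6%. The motifs differed by class. CCAAT was in every H1, H2A and H2B promoter, in 80% of the H3 promoters and in 25% of the H4 promoters. The octamer was in 41.2% of the H2A and 35.7% of the H2B promoters and in none of the H1, H3 and H4 promoters. In 3 of the 7 H2A promoters with an octamer, the window overlapped that of an H2B gene read the other way, so that both share the motif. The promoters below show an H1 gene with CCAAT and TATAAA, the H2B gene of the highest level per kb, a pair of H2A and H2B genes whose windows overlap, and the H4 gene of the highest level per kb, which has no CCAAT. Capitals mark the motifs on either strand.

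Hist1h1e (chr13:23622559-23622808, minus strand): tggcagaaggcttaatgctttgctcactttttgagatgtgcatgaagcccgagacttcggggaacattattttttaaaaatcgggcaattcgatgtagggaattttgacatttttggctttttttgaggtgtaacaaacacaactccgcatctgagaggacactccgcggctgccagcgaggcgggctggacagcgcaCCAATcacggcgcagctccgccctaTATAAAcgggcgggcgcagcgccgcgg
Hist1h2bb (chr13:23746484-23746733, plus strand): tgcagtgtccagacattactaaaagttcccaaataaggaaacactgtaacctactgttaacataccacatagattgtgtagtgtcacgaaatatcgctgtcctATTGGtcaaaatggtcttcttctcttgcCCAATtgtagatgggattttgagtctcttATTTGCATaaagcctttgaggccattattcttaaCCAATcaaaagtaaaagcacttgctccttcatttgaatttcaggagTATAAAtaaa
Hist1h2ah (chr13:22035644-22035893, minus strand): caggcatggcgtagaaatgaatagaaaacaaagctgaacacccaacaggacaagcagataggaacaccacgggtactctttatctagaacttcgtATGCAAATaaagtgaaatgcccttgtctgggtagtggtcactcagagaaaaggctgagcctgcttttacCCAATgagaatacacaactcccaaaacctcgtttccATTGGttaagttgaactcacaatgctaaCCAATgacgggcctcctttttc
Hist1h2bk (chr13:22035571-22035820, plus strand): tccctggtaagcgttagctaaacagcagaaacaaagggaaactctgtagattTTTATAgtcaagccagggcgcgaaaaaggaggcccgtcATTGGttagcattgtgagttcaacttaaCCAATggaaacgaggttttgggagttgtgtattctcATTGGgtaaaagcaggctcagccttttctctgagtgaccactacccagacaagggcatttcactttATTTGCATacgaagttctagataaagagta
Hist1h4f (chr13:23551669-23551918, minus strand): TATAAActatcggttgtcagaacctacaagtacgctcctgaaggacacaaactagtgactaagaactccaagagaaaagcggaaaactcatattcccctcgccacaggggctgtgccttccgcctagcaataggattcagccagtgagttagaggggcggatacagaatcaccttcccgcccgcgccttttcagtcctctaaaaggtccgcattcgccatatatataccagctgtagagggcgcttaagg

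A match is a description of these letters in this window and not a site of binding.

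Whether CDPs of obese mice carry more histone mRNA was the first question. Histone mRNA took 0.62% to 1.33% of all counts in a library, and its mean level was higher in HFD, but the diets overlapped. The summed level of the 65 genes was 10562, 9388, 10389 and 12610 CPM in HFD 1 to 4 and 7787, 12558, 9486 and 6941 CPM in CF 1 to 4. CF 2 was level with the highest HFD library, and CF 1 and CF 4 were the lowest of all. The means were 10740 ± 1351 CPM in HFD and 9193 ± 2480 CPM in CF (SD, n = 4 each), a ratio of 1.17 or 0.22 on the log2 scale, which is smaller than the spread within CF, where the highest library was 1.81 times the lowest. No test was made on the sum, since the members share sequence and control. As a share of the counts of protein-coding genes, the histone genes took 2.52% to 3.43% in HFD and 1.95% to 3.24% in CF.

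Gene by gene, no histone gene passed the test between the diets. By edgeR's quasi-likelihood test, 0 of 65 genes passed an adjusted p of 0.05, with adjusted p values from 0.513 to 0.999. Over all genes tested, 0.423% were called, and those called higher were 0%. DESeq2 called 0 of the 65 as well (0.407% of all genes were called higher by it), and so did limma voom (0% called higher). At an unadjusted p below 0.05, 2 histone genes were higher in HFD by edgeR, against 3.22% of all genes, and 0 were lower, against 5.34%. DESeq2 put 5 of the 65 below that limit, all higher, against 3.38% of all genes, and limma voom 6, all higher, against 3.2%. In 0 of the 65 genes was every HFD library above every CF library, or below, which 2.58% and 3.58% of all genes were.

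The direction was shared by nearly all members. The fitted log2 fold change was above 0 for 63 of 65 genes, with a median of 0.24, against a median of 0.06 over all genes tested, of which 59.7% were above 0. Over the protein-coding genes tested, the median was 0.07 and 64.65% were above 0. The histone genes rise and fall together between libraries, so their number is not a number of independent observations. By class, the median was 0.30 for H1, 0.27 for H2A, 0.28 for H2B, 0.19 for H3 and 0.17 for H4. Only Hist1h1t, at -0.46, and Hist2h2aa1, at -0.18, were below 0, and with other scalings Hist2h2aa1 moved to 0.094 (library size alone) and Hist1h2be to -0.028 (protein-coding genes alone).

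**Figure D1:**
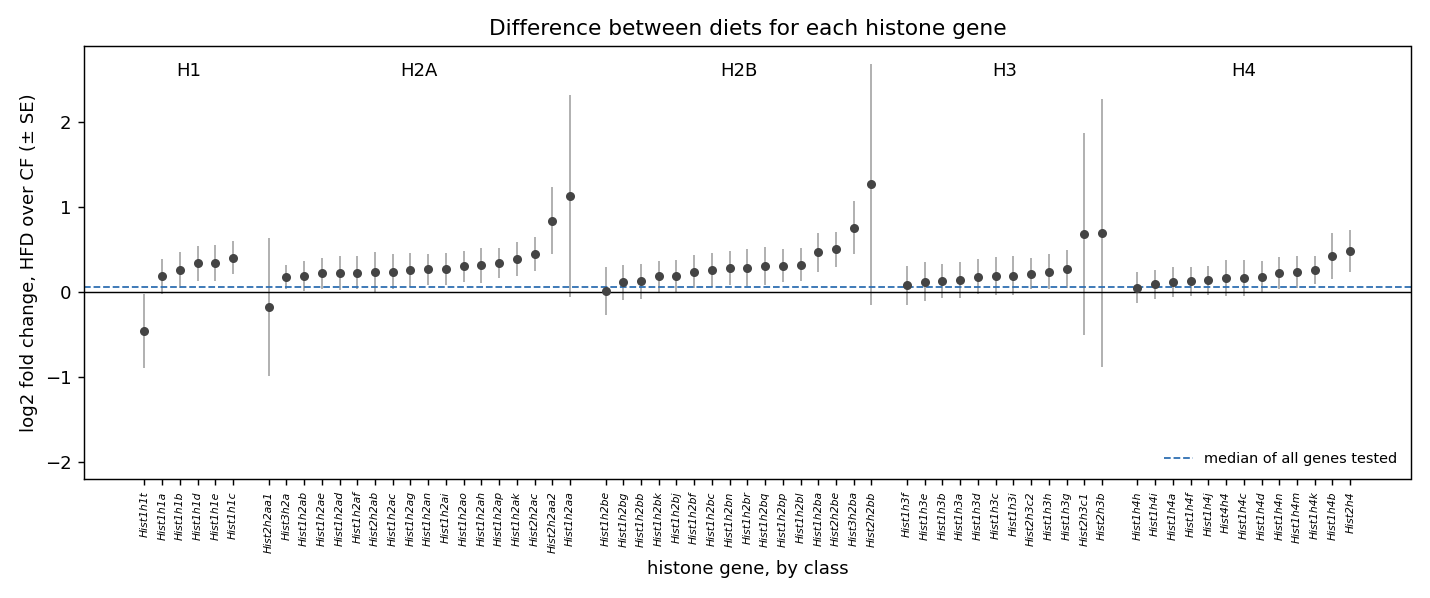
Log2 fold change of HFD over CF from edgeR for each of the 65 histone genes, sorted within class, with bars of 1 SE. The points lie close above 0, 63 of 65 of them positive, and the widest bars belong to genes with uneven counts such as Hist2h3b, Hist2h2bb and Hist1h2aa.

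The pattern across libraries was more marked than the difference between diets. Within CF, CF 2 was the highest of the 4 libraries for 62 of the 65 histone genes and CF 4 the lowest for 53. For the 11710 other protein-coding genes, CF 2 was the highest for 29.7% and CF 4 the lowest for 25.3%. CF 4 had a TMM factor of 1.18, against 0.80 to 0.90 in the other CF libraries, so its place depends on the scaling. As a share of all counts the histone genes took 0.82% in CF 4 and 0.62% in CF 1, and of protein-coding counts 1.95% and 2.20%. Within HFD, HFD 4 was the highest for 48 of the 65 genes and HFD 2 the lowest for 48, against 25.1% and 18.2% of the other protein-coding genes. The median SD of log2 CPM over the CF libraries was 0.38 for the histone genes, and 0.15 for the 6601 other protein-coding genes with a mean of at least 10 CPM. In HFD the corresponding values were 0.23 and 0.23. A spread wider than that of other genes was thus seen in CF and not in HFD. In HFD the spread of other genes includes HFD 1. That library was the highest of its diet for 36.4% of the 11710 other protein-coding genes and the lowest for 34.1%.

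**Figure D2:**
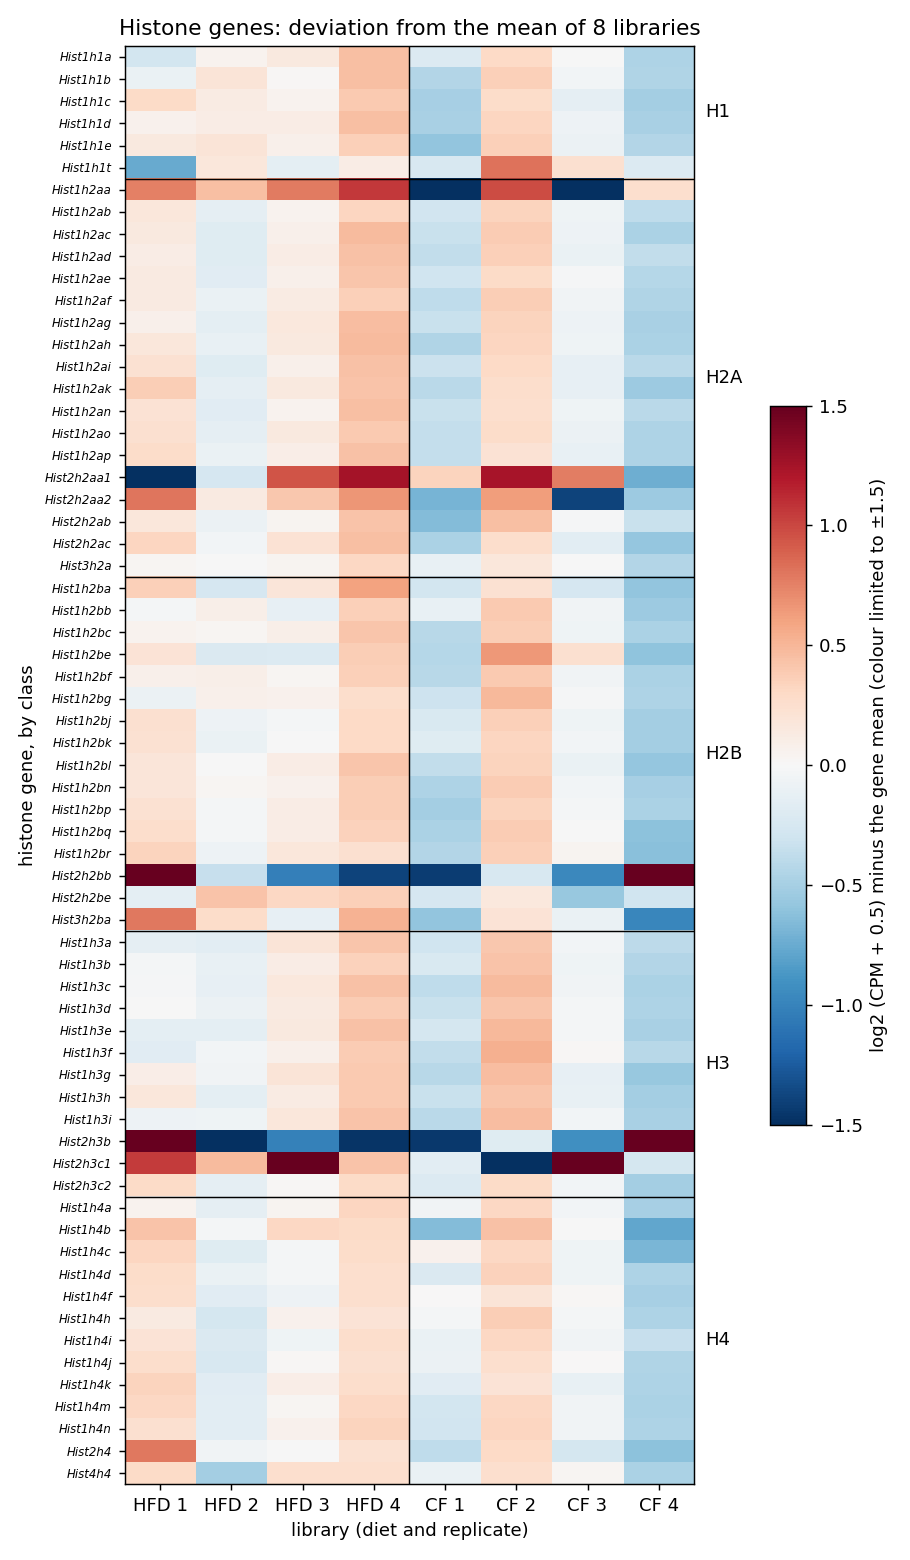
Heat map of the 65 histone genes (rows, by class) in the 8 libraries (columns), coloured by log2 (CPM + 0.5) minus the gene's mean, with colour limited to 1.5 in either direction. CF 2 and HFD 4 are high and CF 4 low across all 5 classes, and Hist2h2bb, Hist2h3b and Hist2h3c1 of the Hist2 cluster do not share the pattern, while Hist2h2aa1 departs from it by its low level in HFD 1.

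The members followed each other closely. Over the 8 libraries, the correlation of a gene's log2 CPM with the sum of the other members had a median of 0.94, and 45 of the 65 genes were above 0.9. Libraries share their depth and composition, so this describes the set. The genes with the lowest values were Hist2h3c1 (-0.36), Hist2h3b (-0.24), Hist2h2bb (-0.20), Hist2h2aa1 (0.21), Hist1h1t (0.37) and Hist1h2aa (0.47).

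The size of the difference depended on single libraries. Without CF 2, 38 of the 65 histone genes were higher in HFD at an unadjusted p below 0.05, against 3.44% of all genes, and in 17 every HFD library was above every remaining CF library, against 5.29% of all genes. CF 2 was the highest CF library for 62 of the 65 genes and for 27.8% of all genes tested. Leaving it out therefore raises these counts more than the shares over all genes, which are no matched reference. The adjusted p of edgeR was still at least 0.16, with 0 genes called. The median log2 fold change was 0.42 without CF 2, and 0.11 without HFD 4, 0.13 without CF 4 and 0.17 without CF 1. With all libraries scaled by library size alone, 37 of the 65 were higher at an unadjusted p below 0.05, against 9.92% of all genes. Without HFD 1, the library with the high neutrophil and erythroid markers, the median was 0.23. CF 2 lay between other CF libraries in total counts, at 35734025, and in short non-coding RNA, at 24.9%.

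The classes of histone were also summed separately. The summed level of the 6 H1 genes was 2155, 2256, 2153 and 2714 CPM in HFD 1 to 4 and 1473, 2548, 1931 and 1473 CPM in CF 1 to 4. All HFD libraries were above 3 of the CF libraries, and CF 2 was above 3 of the HFD libraries. The ratio of the means was 1.25 for H1, 1.19 for H2A, 1.151 for H2B, 1.13 for H3 and 1.13 for H4, and in each class the diets overlapped. The 12 H3 genes made up the largest share of the histone counts, 26.2%, followed by H1 with 20.9%, H2B with 19.2%, H4 with 18.1% and H2A with 15.5%.

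**Figure D3:**
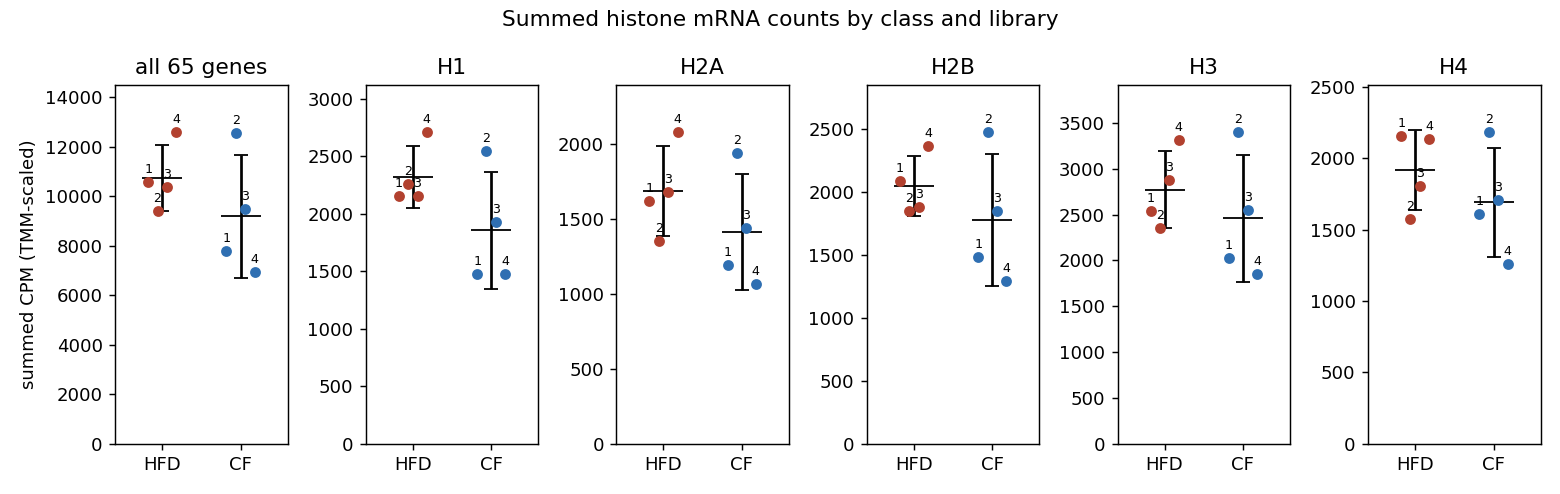
Summed CPM, scaled by TMM, of all 65 histone genes and of each class in each library, numbered by replicate, with the mean and SD of 4 libraries per diet. In every panel CF 2 lies with the highest HFD libraries and CF 4 is at or near the bottom.

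The ratio of H3 to H4 summed CPM was 1.18 in HFD 1 and 1.26 in CF 1, and 1.47 to 1.59 in the other 6 libraries. H4 thus stood higher against H3 in 1 library of each diet. The ratio of H4 to H1 was likewise highest in these libraries, at 1.00 and 1.09, against 0.70 to 0.89 in the rest.

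The H1 genes encode the linker histones that bind the DNA where it enters and leaves the nucleosome. Hist1h1c had the largest rise of the class, and was at 596, 532, 507 and 638 CPM in HFD 1 to 4 and 345, 587, 443 and 343 CPM in CF 1 to 4. Only CF 2 was above any HFD library (log2 fold change 0.40 ± 0.19 (SE), adjusted p = 0.649 by edgeR). Hist1h1e was at 576, 598, 549 and 666 CPM in HFD and 345, 666, 490 and 386 CPM in CF, again with CF 2 level with the highest HFD library (0.34 ± 0.21, adjusted p = 0.773). Hist1h1b was at 316, 386, 342 and 461 CPM in HFD and 249.4, 433, 329 and 248 CPM in CF (0.26 ± 0.21, adjusted p = 0.839). HFD 1 was the lowest HFD library for 4 of the 6 H1 genes, among them Hist1h1a, at 212 CPM against 268, 286 and 353, with CF at 223, 318, 257 and 187 CPM. Hist1h1t, the linker histone of the testis, was at 0.48 to 1.35 CPM in HFD and 0.90 to 2.42 CPM in CF (-0.46 ± 0.43, adjusted p = 0.868), the lowest level of all members per kb.

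Core histones H3 and H4 form the tetramer at the heart of the nucleosome. The H3 genes of the highest level per kb of annotated exons were Hist1h3c, Hist1h3b and Hist1h3a. Hist1h3c was at 344, 320, 388 and 472 CPM in HFD and 267, 484, 335 and 250.2 CPM in CF, with CF 2 the highest of the 8 libraries (0.19 ± 0.23, adjusted p = 0.908). Hist1h3b was at 312, 296, 344 and 407 CPM in HFD and 272, 430.5, 305 and 235 CPM in CF, with CF 2 again highest (0.13 ± 0.20, adjusted p = 0.933). Hist1h3a, at 204 to 357 CPM over all libraries, and Hist1h3f, at 264 to 514 CPM, had log2 fold changes of 0.14 and 0.08. All 12 H3 genes had a log2 fold change above 0, with adjusted p values of 0.840 to 0.971 by edgeR.

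Of the 13 H4 genes, all had a log2 fold change above 0 and for all 13 CF 2 was the highest and CF 4 the lowest of the CF libraries. In HFD, HFD 2 was the lowest for all 13, and HFD 1 the highest for 8. Hist1h4f, the H4 gene of the highest level per kb and the one without CCAAT shown above, was at 249.6, 185, 198 and 249.1 CPM in HFD and 210.1, 239.5, 211 and 148 CPM in CF (0.12 ± 0.17, adjusted p = 0.929). Hist1h4h was at 242, 184, 232 and 254 CPM in HFD and 217, 286, 217 and 160.4 CPM in CF (0.05 ± 0.18, adjusted p = 0.977), and its highest library was CF 2. Hist1h4n was at 163 to 230.0 CPM in HFD and 132 to 227 CPM in CF. The adjusted p values of the class were 0.687 to 0.977.

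H2A and H2B pair as dimers on either side of that tetramer, and their genes often stand back to back. Of the pair whose promoters are shown above, Hist1h2ah was at 129, 106, 127 and 160.0 CPM in HFD and 83.85, 144, 110.5 and 82.6 CPM in CF (0.31 ± 0.20, adjusted p = 0.794), with CF 2 above 3 of the HFD libraries. Its neighbour Hist1h2bk was at 163, 129.7, 139 and 171 CPM in HFD and 122, 174, 135 and 97.9 CPM in CF (0.19 ± 0.18, adjusted p = 0.872), with CF 2 the highest of all. Both had HFD 2 as the lowest library in HFD. Hist1h2ab, the H2A gene of the highest level per kb, was at 139 to 189.6 CPM in HFD and 116 to 191 CPM in CF, and Hist1h2ak at 95.6 to 141 and 72.0 to 126 CPM.

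Hist1h2bb had the highest level per kb of all members, with 648 ± 97.6 CPM per kb in HFD and 594 ± 159 in CF (SD, n = 4 each). In each library it was at 304, 330.1, 284 and 398 CPM in HFD and 287, 408, 299.5 and 212 CPM in CF (0.13 ± 0.20, adjusted p = 0.937). In the order of the means per kb over the 8 libraries, the next were Hist1h3c with 605 ± 107 in HFD, Hist1h4f with 564 ± 86.3, Hist1h3b with 548 ± 78.8 and Hist1h3a with 537 ± 105, and each of these neighbours differed by less than its SD. Hist1h2bn and Hist1h2bj followed among the H2B genes, with means over the 8 libraries of 378 and 350.2 CPM per kb. Levels per kb depend on the annotated exon length: Hist1h1d, at 310 to 595 CPM, came to 59.9 CPM per kb because 7425 nt are annotated for it.

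A testis histone gene at one end of the Hist1 cluster was low. Hist1h2aa, a testis H2A, had 100, 80, 125 and 168 counts in HFD and 0, 121, 0 and 82 counts in CF, so that it was present in every HFD library and missing from CF 1 and CF 3, where a count of 0 allows up to 3 counts. Its log2 fold change of 1.13 ± 1.19 (SE) had a wide error (adjusted p = 0.884), and ran from 0.715 without CF 1 to 2.18 without CF 2 and to 4.05 with limma voom. An antisense miRNA gene, Gm44344, overlaps it, with counts only in HFD 2 (80) and CF 2 (120), and strand was not known to separate the reads.

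Outside the Hist1 cluster lie 13 members, and the 2 genes with an unadjusted p below 0.05 were among them. Hist2h2be, an H2B variant known from olfactory neurons, was at 6.39, 9.72, 8.95 and 9.27 CPM in HFD and 5.89, 8.02, 4.63 and 5.67 CPM in CF. HFD 1 fell among the CF libraries, and the others were above them (0.50 ± 0.21, adjusted p = 0.513 by edgeR). Hist3h2ba, an H2B gene of the Hist3 pair, was at 11.8, 8.05, 5.98 and 9.61 CPM in HFD and 4.19, 7.63, 6.08 and 3.07 CPM in CF, with HFD 3 below both CF 2 and CF 3 (0.76 ± 0.31, adjusted p = 0.520). The two-sided exact permutation p with 70 assignments of diet was 0.0571 for Hist2h2be and 0.0857 for Hist3h2ba, where the smallest this design allows is 0.029. Both genes are low beside most members.

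The remaining genes of these clusters were as follows. Hist2h2ac was at 99.4, 77.0, 92.1 and 108 CPM in HFD and 57.0, 95.6, 71.1 and 52.7 CPM in CF, with CF 2 above HFD 2 and HFD 3 (0.45 ± 0.20, adjusted p = 0.585). Hist2h4, which encodes H4, was at 163, 90.5, 93.6 and 111 CPM in HFD and 72.5, 116, 78.6 and 61.1 CPM in CF (0.48 ± 0.25, adjusted p = 0.687), with HFD 1 well above the rest, and the log2 fold change was 0.26 without HFD 1. Hist4h4, the single gene on chromosome 6, was at 52.9, 30.1, 51.5 and 51.6 CPM in HFD and 40.1, 51.6, 44.0 and 30.8 CPM in CF. HFD 2 thus held less Hist4h4 than any CF library (0.16 ± 0.21, adjusted p = 0.923). Hist3h2a (HFD 69.0 to 85.6 CPM, CF 51.0 to 78.2), Hist2h2ab (17.9 to 25.9 and 11.9 to 26.3) and Hist2h3c2 (183 to 244 and 141 to 244) overlapped as well.

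Counts of 4 Hist2 genes jumped between libraries. Hist2h2aa1 had 231, 2415, 6668 and 8949 counts in HFD 1 to 4 and 4429, 6732, 4934 and 2097 counts in CF 1 to 4. Hist2h3c1 had 2033, 1386, 5591 and 1741 counts in HFD and 1082, 2, 4190 and 994 in CF. The processed transcript Gm20634 (chr3:96245554-96248509) overlaps both on the same strand, and had 10743, 2773, 106 and 5223 counts in HFD and 3446, 200, 153 and 2984 in CF. HFD 1 had the fewest counts for Hist2h2aa1 and the most for Gm20634, and CF 2, with 2 counts for Hist2h3c1, had 6732 for Hist2h2aa1. HFD 4 went the other way, with the most counts for Hist2h2aa1, 8949, and 5223 for Gm20634, more than any library but HFD 1. The sum of the 3 genes was 207 to 417 CPM in HFD and 158 to 292 CPM in CF, a much narrower range than that of each alone. Hist2h2aa1 also has a copy of identical coding sequence, Hist2h2aa2, at 76.5, 47.8, 57.7 and 68.85 CPM in HFD and 26.7, 67.3, 16.3 and 29.7 CPM in CF (0.84 ± 0.39, adjusted p = 0.632), in which every 75-base window recurs in another member.

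Nearby, Hist2h3b had 1328, 20, 43 and 28 counts in HFD and 27, 75, 39 and 898 in CF, and Hist2h2bb had 834, 47, 28 and 19 in HFD and 17, 51, 25 and 357 in CF. Both were high in HFD 1 and CF 4 and low in the other 6 libraries. The antisense gene Gm20628 (chr3:96267075-96270289) covers both, and had 14604 to 28516 counts. The log2 fold changes of these genes therefore carry large errors: 0.70 ± 1.58 for Hist2h3b, 1.27 ± 1.42 for Hist2h2bb, 0.68 ± 1.19 for Hist2h3c1 and -0.18 ± 0.81 for Hist2h2aa1. How reads were divided between the overlapping genes was not tested. Without these 4 genes, the median log2 fold change of the other members was 0.235 and that of the sum 0.225.

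**Figure D4:**
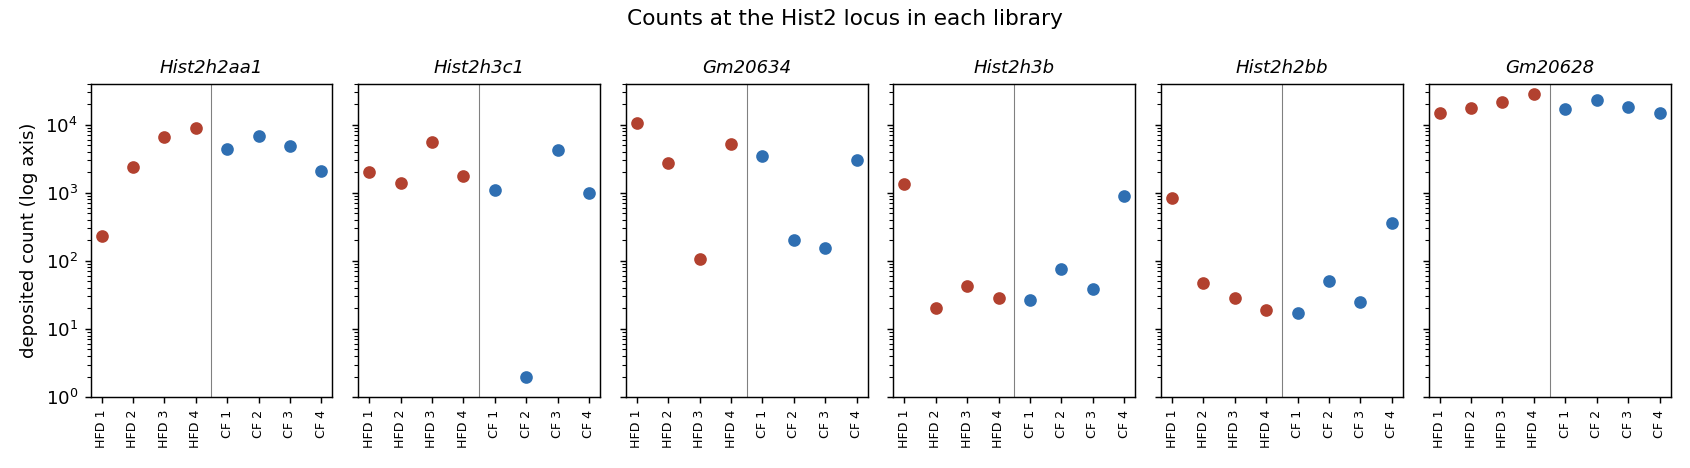
Deposited counts, on a log axis, of 4 histone genes of the Hist2 cluster and of the overlapping genes Gm20634 and Gm20628 in each library. Hist2h3c1 falls to 2 counts in CF 2, Hist2h3b and Hist2h2bb are high in HFD 1 and CF 4 alone, and Gm20628 stays between 14604 and 28516.

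Overlap and sequence identity touch many members. Of the 65 genes, 24 overlap another annotated gene, 7 on the same strand and 21 on the other. In 27 genes at least 50% of the 75-base windows, the length of a read, recur in another member, and 10 genes have a coding sequence identical to that of another member. With members of at least 99% coding identity summed to 1 feature, which left 52 families, 0 were called by edgeR and 51 had a log2 fold change above 0.

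The annotation has more than 1 exon or over 1000 nt of exons for 18 members. Of the 5 spliced ones, Hist1h2bc was at 142, 139, 145 and 181 CPM in HFD and 102, 177, 131 and 97.8 CPM in CF (0.26 ± 0.20). Hist1h2bq had 0.31 ± 0.22, Hist1h2br 0.29 ± 0.22 and Hist1h2bp 0.31 ± 0.20. Hist1h2be, whose annotation overlaps that of Hist1h1e, was at 238, 177, 179 and 266 CPM in HFD and 153, 322, 242 and 135 CPM in CF (0.01 ± 0.28), with CF 2 above all HFD libraries. The value of Hist1h2be was -0.001 with RLE size factors, -0.028 with protein-coding genes alone and 0.23 with library size alone.

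Other genes of histone supply and of DNA replication were examined as lists. Of the protein-coding genes tested, 64.65% had a log2 fold change above 0. The 60 DNA replication genes are mostly polyadenylated, and 49 of them had a log2 fold change above 0, with a median of 0.13 and 0 called by edgeR. Without HFD 4, 31 of the 60 were above 0. Their summed level was 3415, 3758, 3546 and 4006 CPM in HFD and 3354, 3505, 3511 and 3401 CPM in CF. CF 4, with the lowest histone sum, and CF 2, with the highest among the CF libraries, were thus close together in DNA replication genes. Within CF, CF 2 was the highest library for 38.3% of these genes and CF 4 the lowest for 25%. The lowest p was that of Rfc4, a subunit of the clamp loader that places PCNA on DNA, at 13.5, 13.7, 13.6 and 15.8 CPM in HFD and 10.6, 9.96, 10.8 and 9.59 CPM in CF. All 4 HFD libraries were above all CF libraries, as in 2.58% of all genes (0.47 ± 0.11, adjusted p = 0.124 by edgeR). DESeq2 called this gene (adjusted p = 0.0067), as it called 0.407% of all genes higher in HFD. Rfc3, of the same complex, was at 11.7 to 13.8 CPM in HFD and 9.35 to 10.3 CPM in CF (0.375 ± 0.108, adjusted p = 0.222).

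**Figure D5:**
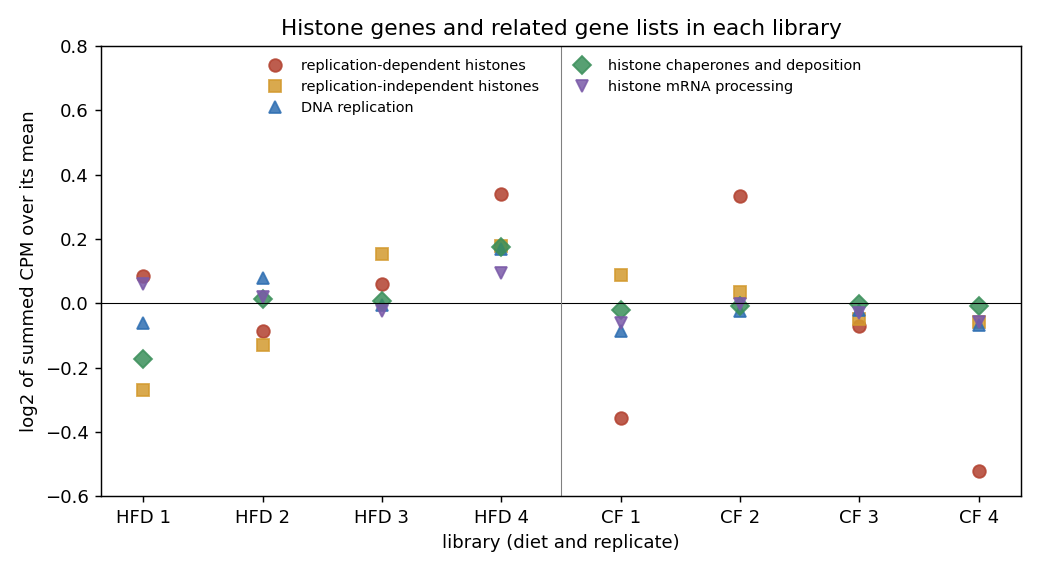
Log2 of the summed CPM of 5 gene lists in each library over the list's mean of the 8 libraries. The replication-dependent histones range from 6941 to 12610 CPM, while the DNA replication, histone chaperone and histone mRNA processing lists lie close together in the 4 CF libraries.

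Of the 33 genes of histone mRNA processing, 23 had a log2 fold change above 0, with a median of 0.10, 0 called, and 4 at an unadjusted p below 0.05, against 8.56% of all genes tested. Of these 4, 3 were higher in HFD, against 3.22% of all genes, and 1 was lower, against 5.34%. Slbp, which binds the stem-loops shown above, was at 54.6, 48.0, 46.7 and 54.8 CPM in HFD and 43.7, 44.0, 41.7 and 49.1 CPM in CF (0.19 ± 0.10, adjusted p = 0.686), and CF 4, lowest in histone mRNA, was the highest CF library for it. Npat, the coactivator of histone transcription at histone locus bodies, was at 41.1 to 45.9 CPM in HFD and 37.5 to 39.3 CPM in CF (0.17 ± 0.08, adjusted p = 0.650). Every HFD library was thus above every CF library for it, as in 2.58% of all genes. Cpsf2, of the complex that cleaves the pre-mRNA, was at 43.9 to 52.5 CPM in HFD and 37.2 to 41.8 CPM in CF (0.29 ± 0.09, adjusted p = 0.301). Snrpb, a core protein of splicing snRNPs, went the other way, with 36.2 to 47.4 CPM in HFD and 45.9 to 64.55 CPM in CF (-0.40 ± 0.135, adjusted p = 0.343).

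The 10 replication-independent histone genes tested, which are also transcribed outside S phase and mostly polyadenylated, had a summed level of 845 to 1153 CPM in HFD and 979 to 1084 CPM in CF, and 9 of 10 had a log2 fold change above 0, with a median of 0.11 and 0 called. H2afv had the lowest p (0.31 ± 0.14, adjusted p = 0.616), followed by H2afy2 at 0.94 ± 0.64 (adjusted p = 0.804), which was under 2 CPM in every library. H2afx, whose mRNA can also end in a stem-loop, was at 161, 125, 138 and 166 CPM in HFD and 127, 156.5, 139 and 106 CPM in CF, and so had CF 2 highest and CF 4 lowest in CF. Within CF, CF 2 was the highest library for 7 of the 10 genes and CF 4 the lowest for 5, as for H3f3a at 89.8, 105.4, 77.8 and 75.2 CPM in CF 1 to 4. H2afy, the most abundant of them, was at 603, 500.2, 509.5 and 555 CPM, with CF 2 lowest. Of the 28 histone chaperone and deposition genes, 20 were above 0 with a median of 0.04 and 0 called (11 were above 0 without HFD 4, and 14 with protein-coding genes alone), and their sum was 2138 to 2721 CPM in HFD and 2379 to 2408 CPM in CF. Spty2d1 (0.21 ± 0.11, adjusted p = 0.726) and the H3-H4 chaperone Asf1a (0.16 ± 0.095, adjusted p = 0.754) had the lowest p of that list.

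The non-histone protein-coding genes with the pattern most like the histone sum, by Pearson correlation of log2 CPM over the 8 libraries among 6601 genes, included Tuba1c (r = 0.962), Vdac1 (0.960), Klhl9 (0.959) and Sec13 (0.955). Spearman's rho was 0.976, 1.00, 0.976 and 0.905 for them. Tuba1c, an alpha tubulin, was at 78.6, 67.0, 74.2 and 81.7 CPM in HFD and 64.1, 80.95, 66.45 and 58.1 CPM in CF, and like the histones had CF 2 highest and CF 4 lowest. Without CF 4 and CF 1, the libraries farthest from the median histone sum, r was 0.921, 0.940, 0.936 and 0.971 in the same order. These are the highest of many correlations over few libraries and are given as a description.

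Markers of other cell types were read beside the histone genes. None of the marker genes was called by edgeR. The log2 fold change was above 0 for 64.65% of the protein-coding genes tested. The 7 markers of CDPs and of the sort gate summed to 534.5 CPM in HFD 1, 1059 to 1253 in the other HFD libraries and 860.2 to 1035 in CF, with 3 of 7 above 0. Of the neutrophil markers 11 of 12 were above 0, of the granulocyte progenitor markers 5 of 7 (HFD 219 to 1205 CPM, CF 333 to 730.5), of the erythroid 12 of 12, and of the monocyte and macrophage markers 5 of 9 (223 to 1984 and 385 to 894). B cell markers were above 0 in 10 of 11 genes, and summed to 472 up to 1314 CPM for HFD against 326 up to 561 for CF, and T and NK cell markers in 3 of 5 (12.3 to 30.4 and 13.5 to 22.5). Plasmacytoid DC markers were above 0 in 6 of 6 genes, and summed to between 174 and 411 CPM for HFD against 184 to 232 for CF, and conventional DC markers in 1 of 8, with 288 to 846.5 and 776 to 1141. DESeq2 called Siglech, Ccr9 and Cd79a higher in HFD, as it did 0.407% of all genes, and Cd74 and H2-Aa lower, as it did 3.2%. Among the CF libraries, CF 2 was above CF 4 in the conventional DC (1141 against 776 CPM), monocyte (894 against 617), granulocyte progenitor (688 against 473.5), B cell (454 against 332), plasmacytoid DC (232 against 184), T and NK cell (18.5 against 15.6), neutrophil (6440 against 5864) and erythroid markers (180.2 against 139), and slightly below it in the CDP markers (929 against 941.5). The part of these cells in the histone levels was not tested. By exon length, the 27 members with up to 500 nt had a median log2 fold change of 0.26, against 0.04 for 24 other protein-coding genes of that length. The 21 members of 500 to 1000 nt had 0.17 against 0.125 for 226 other genes, and the 9 of 1000 to 2000 nt had 0.26 against 0.115 for 1187.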

How the data were processed

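Raw counts per gene were deposited by the authors as a table of whole numbers for 8 libraries. Per the labels and the study's methods, read pairs of total RNA libraries (NuGen Ovation Solo) were trimmed with cutadapt, checked with FastQC, aligned to GRCm38 with HISAT2 and counted with StringTie on GENCODE genes. Versions are not given in the sources used here. Counting on overlapping genes and on near-identical copies can move reads between members, and the depletion of ribosomal RNA and the share of short RNA affect the scale.

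These counts were fitted with edgeR 4.0.16 in R 4.3.3, using filterByExpr by diet, TMM, robust quasi-likelihood fit of HFD against CF with no covariate, and Benjamini-Hochberg adjustment over 15837 genes. CPM were scaled by TMM, and log2 CPM used a prior count of 2. DESeq2 1.42.0, limma 3.58.1 (voom), other scalings, filters, a replicate block and leaving out each library were alternatives. Gene models, exon lengths and stem-loops came from GENCODE vM21 (16067 of the table's rows matched, 52 did not), and promoters from RefSeq. Figures were drawn with matplotlib 3.10.9. The fit was also run on simulated counts of genes drawn independently, with set changes larger than the median difference of the members. That run gives no measure of power for changes as small as that median.

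Genes given with values were the 3 members per class with the highest CPM per kb, the 5 largest rises and falls, those with an unadjusted p below 0.05, members outside Hist1, spliced or long members, and the lowest 2 p values of each pathway list. Further genes (Hist1h2bk, and Slbp, Npat, H2afx, H3f3a and H2afy of the lists) were added after their values were seen. The members and lists were chosen with earlier results of these data known. The 4 pathway lists and the marker lists were written from general knowledge. FPKM, the transcript level and the study's other assays were not used, 0 sample columns were left out, and 1 gene with a pattern like that of the members is not reported here.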

Additional observations from a re-analysis of the deposited data

Results flagged for a closer look

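In 5 of the 142 groups of 4 libraries that were examined (within a diet, each histone gene on log2 CPM, and each class and all members together on summed CPM), 1 library stood farther from the other 3 than Dixon's critical value allows. Chance marks about 1 in 20 groups, so 5 is no more than chance gives. Levels below are in CPM. HFD 4 was the highest library for Hist1h1d, at 595 CPM against 453 to 471 in the other HFD libraries, for Hist1h2bc, at 181 CPM against 139 to 145, and for Hist3h2a, at 85.6 CPM against 69.0 to 71.4. HFD 1 held 42.6 CPM of Hist2h3b against 0.63 to 1.13. HFD 2 was the lowest for Hist4h4, at 30.1 CPM against 51.5 to 52.9.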

How the results depend on the processing

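No histone gene was called under any alternative run, and the median log2 fold change of the members kept its direction throughout. Scaling by library size without TMM shifted the all-gene median from 0.06 to 0.25, and that of the members to 0.45, and 37 members had an unadjusted p below 0.05, all higher in HFD, as had 9.92% of all genes. The members' median was 0.20 with protein-coding genes alone. Its lowest and highest values with a library left out were 0.11 and 0.42, and 0.10 and 0.41 for the log2 ratio of the sum. The number of members at an unadjusted p below 0.05 was 2 with all libraries, 38 without CF 2, 4 without HFD 2, 0 without HFD 4, CF 1 or CF 4, and 1 without HFD 1, HFD 3 or CF 3. Over all genes, edgeR called 67, DESeq2 567 and edgeR with library size alone 108. With a library left out it called 200 without HFD 1, 154 without CF 4, 2 without HFD 4, 1 without HFD 2 and 0 without HFD 3, CF 1, CF 2 or CF 3, and 0 with protein-coding genes alone. DESeq2 called 1 gene of the DNA replication list, Rfc4, and 0.407% of all genes, higher in HFD. No pairing by replicate number was seen: deviations of libraries of the same number correlated at -0.44 to -0.08. With 4 libraries per diet, a modest pairing could be missed. With the replicate block, 0 members and 0 genes in all were called, with a median of 0.26.

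Of 656 values for 41 named members, 633 kept their direction and 23 changed sign. Hist1h2be was -0.001 with RLE size factors and with DESeq2 and -0.028 with protein-coding genes alone. Hist2h2aa1 was 0.094 with library size alone. Hist2h3b was -0.46 with limma voom and -0.82 with the replicate block. With a library left out, values ran from -0.16 to 0.28 for Hist1h2be, from -0.68 to 0.21 for Hist2h2aa1, from -1.78 to 2.95 for Hist2h2bb, from -3.08 to 2.97 for Hist2h3b, from -0.019 to 0.31 for Hist1h2bb, from -0.021 to 0.33 for Hist1h3a, from -0.009 to 0.33 for Hist1h3b, from -0.077 to 0.32 for Hist1h3f and from -0.072 to 0.20 for Hist1h4h. In 36 of the 41, leaving out some library moved the log2 fold change by over 1.5 times, and 27 of these kept their sign. Among the 27, values ran from 0.12 (without HFD 3) to 2.05 (without CF 3) for Hist2h3c1, which was 2.71 with limma voom and 1.65 with the replicate block, from 0.26 (without HFD 1) to 0.70 (without CF 2) for Hist2h4, and, between the fits without HFD 4 and without CF 2, from 0.029 to 0.42 for Hist1h3c and from 0.11 to 0.45 for Hist1h1b. The cause was not tested. The summed level without the 4 uneven Hist2 genes was an alternative chosen after seeing the data. Genes under 10 CPM and counts at overlapping genes limit what single members can show.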

Other observations

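The name rule for protein-coding genes leaves out 3 histone pseudogenes of the table. Hist1h2al had 1408, 1071, 1492 and 1897 counts in HFD and 932, 1435, 998 and 814 in CF (log2 fold change 0.42, adjusted p = 0.737 by edgeR). Hist1h2aj had 3023, 2337, 3177 and 4479 counts in HFD and 2472, 3054, 2505 and 2374 in CF (0.27, adjusted p = 0.804). Hist3h2bb-ps had 281 to 527 counts in HFD and 278 to 327 in CF (0.23, adjusted p = 0.812). They are classed as pseudogenes in the annotation used, and their reads can be shared with near-identical members.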
